A study of Mus musculus with 24 samples.

Results

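Hearts under pressure overload were compared after benzene inhalation and after filtered air. The comparison used 12 of the 24 libraries of the series, 6 labelled TAC/Benzene and 6 labelled TAC/Air, chosen by those labels alone. All were poly-A RNA libraries of ventricular tissue (left ventricle plus septum), sequenced as paired reads of 150 bases. The mice were male C57BL/6, an inbred wild-type strain. TAC/Benzene mice had transverse aortic constriction (TAC), 1 week of recovery, and then 6 weeks of benzene inhalation at 50 ppm, on 5 days of each week for 6 hours. TAC/Air mice had the same surgery and recovery and breathed HEPA-filtered air for the same time. The aortic constriction is thus shared by both groups. The remaining 12 libraries, Sham/Benzene and Sham/Air with 6 each, came from mice with sham surgery and the same exposures, and serve here as a second setting for the same contrast. Age, the degree of constriction and the mouse behind each library are not given in the labels, so p-values measure the spread between these libraries, which may be partly technical.

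TAC narrows the aorta, so that the left ventricle pumps against a higher pressure, its myocytes enlarge, and fetal isoforms of contractile and secreted proteins return. Leukocytes take part in this remodelling: endothelial selectins slow passing neutrophils, chemokines such as CXCL1 draw them through the CXCR2 receptor, and resident macrophages display peptides on MHC class II molecules. Benzene is a solvent and a component of smoke and fuel that is oxidised mainly by the cytochrome CYP2E1, and its best known target is the blood-forming marrow.

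The count table held 25229 gene symbols, of which 13571 passed a filter on low counts and were tested. Library totals ran from 10016860 to 13724100 counts in TAC/Benzene and from 10479981 to 13581729 in TAC/Air, a difference within their spread (two-sided exact permutation p = 0.316 over 924 splits). Spearman correlations between TAC libraries ran from 0.976 to 0.996. Left ventricular genes such as Myh6 were high in all 12, at 12194 to 17976 CPM in TAC/Benzene and 12852 to 17597 CPM in TAC/Air, where CPM is the count scaled to a common library size with TMM normalization. The lung epithelial gene Sftpc was at most 0.17 CPM in TAC/Benzene and at most 0.181 CPM in TAC/Air. The first principal component of the TAC libraries held 33% of the variance and did not follow exposure, but the trend of each library with gene GC content: 4 TAC/Benzene and 3 TAC/Air libraries had a rank correlation with GC content of 0.426 to 0.562, and the other 2 and 3 had -0.528 to -0.0143. The second component, 14.7% of the variance, separated the groups without overlap. Replicates were alike, with a common biological variation of 8.73% in TAC/Benzene and 14.1% in TAC/Air. The closest pair, TAC/Benzene replicates 3 and 5, still differed by more than counting noise, with a chi-square of 1.81 per degree of freedom. Sham/Air replicate 1 stood apart, with 4170660 counts, and it enters the spread that the fit shares over all 24 libraries.

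Benzene was accompanied by a limited set of differences in TAC hearts, the largest of them in genes of neutrophils. At a Benjamini-Hochberg threshold of 0.05 in edgeR's quasi-likelihood test, 79 of 13571 genes were called, which is 0.582% of those tested. Of these, 40 were higher in TAC/Benzene (0.295%) and 39 were lower (0.287%). Those shares over all genes are the background for each count of called list members below. The median size of a called difference was 0.71 on the log2 scale, and 12 genes were at least 2-fold higher (0.0884%) and 7 at least 2-fold lower (0.0516%). For 71 of the 79, no TAC/Benzene library overlapped any TAC/Air library, which held for 2.7% of all tested genes (1.5% with TAC/Benzene above and 1.21% with it below). The median log2 fold change over all genes was 0.00. With the spread taken from the 12 TAC libraries alone the count was 276, and without Sham/Air replicate 1 it was 234. When the 4 closest pairs of TAC libraries were summed to 1 library each, leaving 4 a group (chosen after seeing the data), the count was 16, all of them among the 79. Those 16 were S100a9, S100a8, Lcn2, Retnlg, Mmp8, Csf3r, H2-Aa, H2-Ab1, Cd74, Mgl2, Cx3cr1, Clec3a, Chad, Gatm, Col6a6 and Myot. Within the 7 libraries of high GC trend alone 19 genes were called, and within the other 5 alone 5 were. All 79 genes kept their direction under each of these settings in which they were tested.

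**Figure D1:**
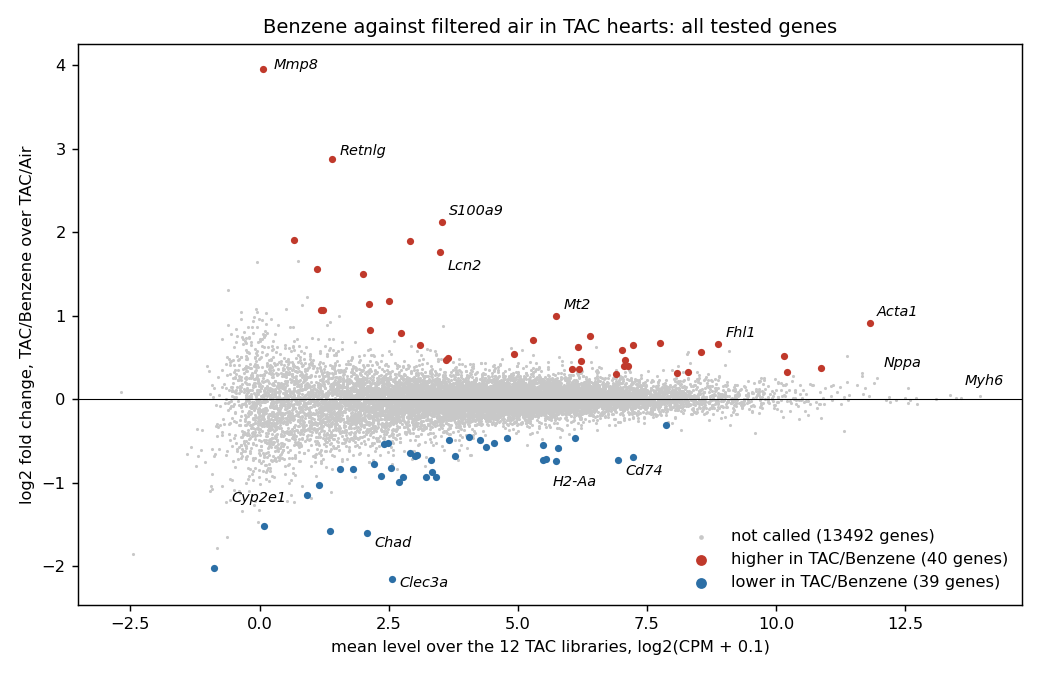
Log2 fold change of each of the 13571 tested genes, TAC/Benzene over TAC/Air (vertical axis), against its mean level over the 12 TAC libraries (horizontal axis, log2 of CPM plus 0.1). Red points are the 40 genes called higher and blue points the 39 called lower; neutrophil genes such as Mmp8, Retnlg and S100a9 form the upper edge, while Myh6 and Nppa lie near 0.

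Several neutrophil genes rose. Of 28 listed, 9 were called higher in TAC/Benzene (0.295% of all genes were) and none lower. Only 11 had enough counts to be tested, and low genes such as Mmp8 could pass that filter through their TAC/Benzene counts alone, so the share of the 11 is no measure of the list. S100a9, which encodes a subunit of the calcium-binding protein calprotectin, had 15.9, 18.8 and 20.1 CPM (lowest, median and highest of 6 libraries) in TAC/Benzene, against 3.57, 3.85 and 5.97 CPM in TAC/Air. The lowest TAC/Benzene library was thus well above the highest TAC/Air library, and the log2 fold change was 2.12 ± 0.20 (SE, edgeR adjusted p = 1.16e-06, n = 6 a group). The gene of its partner subunit, S100a8, had 9.69, 11.04 and 15.8 CPM in TAC/Benzene and 2.21, 2.96 and 4.68 CPM in TAC/Air, a log2 fold change of 1.90 ± 0.23 (edgeR adjusted p = 2.94e-05). Lcn2, the gene of neutrophil gelatinase-associated lipocalin, an iron-sequestering protein that other stressed cells also make, had 15.3, 16.96 and 20.5 CPM in TAC/Benzene against 3.78, 5.22 and 6.16 CPM in TAC/Air (log2 fold change 1.76 ± 0.17, edgeR adjusted p = 1.16e-06). These 3 genes had no overlap between the groups.

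The rarer neutrophil transcripts showed larger folds from lower levels. Retnlg, which encodes a resistin-like protein of mature mouse neutrophils, had 3.27, 4.82 and 5.59 CPM in TAC/Benzene against 0.181, 0.551 and 1.10 CPM in TAC/Air, and a log2 fold change of 2.88 ± 0.31 (edgeR adjusted p = 3.73e-06). Mmp8, the neutrophil collagenase gene, summed to 126 counts over the TAC/Benzene libraries and 8 over the TAC/Air libraries, with a log2 fold change of 3.95 ± 0.55 (edgeR adjusted p = 0.000296). TAC/Benzene replicate 6 was highest for Mmp8, at 3.37 CPM, and 2 TAC/Air libraries had no Mmp8 count at all. Genes of receptors rose too: Csf3r, for the receptor of the granulocyte growth factor G-CSF, had 6.97, 7.61 and 9.02 CPM in TAC/Benzene against 3.16, 3.37 and 4.07 CPM in TAC/Air (1.17 ± 0.17). Cxcr2, for the receptor that reads CXCL1, had 1.74, 2.38 and 2.79 CPM in TAC/Benzene against 0.272, 0.552 and 1.17 CPM in TAC/Air (1.91 ± 0.34). Neither receptor gene overlapped between the groups.

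The last called members were Clec4d, a C-type lectin gene of myeloid cells, with a log2 fold change of 1.56 ± 0.35, and the gelatinase gene Mmp9 at 1.07 ± 0.24, both with an edgeR adjusted p of 0.0313. Mmp9 was the one called neutrophil gene whose groups overlapped, at 1.66, 3.22 and 4.17 CPM in TAC/Benzene against 0.995, 1.49 and 1.79 CPM in TAC/Air. Both calls depend on single libraries. Clec4d lost its call when any 1 of 7 libraries was left out (TAC/Benzene replicates 1 to 3 and TAC/Air replicates 3 to 6, adjusted p 0.0513 to 0.105), and Mmp9 when any 1 of 9 was (TAC/Benzene replicates 2, 4, 5 and 6 and all of TAC/Air but replicate 4, adjusted p 0.056 to 0.107). The other 2 tested members, named after their values were seen, did not pass: Il1b had 1.00 ± 0.30 (adjusted p = 0.195) and Lrg1 0.59 ± 0.28 (adjusted p = 0.788).

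Summed over all listed neutrophil genes, the level was 112.9 to 126.6 CPM in TAC/Benzene and 43.7 to 58.8 CPM in TAC/Air, with no overlap. This sum includes the 9 called genes, so it repeats their differences and adds no separate support. Granule genes that are transcribed in marrow precursors rather than in circulating neutrophils were at or near 0 in both groups: Mpo, Elane and Ctsg had no count in any TAC library, and Ngp had 5 counts in TAC/Benzene and 1 in TAC/Air. Genes of red cells and platelets had a summed level of 49.3 to 58.9 CPM in TAC/Benzene and 55.3 to 66.4 CPM in TAC/Air, with 0 of 7 tested members called. In bulk tissue, more cells of a type and more RNA per cell cannot be told apart, here and for the cell types below. With no filter on low counts, 25 neutrophil genes were tested and the same 9 were called. When the closest libraries were summed, 6 of the 9 kept their call: S100a9, Lcn2, Retnlg, S100a8, Mmp8 and Csf3r. Within the 7 libraries of high GC trend the same 6 were called, and within the other 5, S100a9, Lcn2, Retnlg and S100a8 were. The log2 fold change of S100a9 was 2.01 and 2.27 in these 2 sets.

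**Figure D2:**
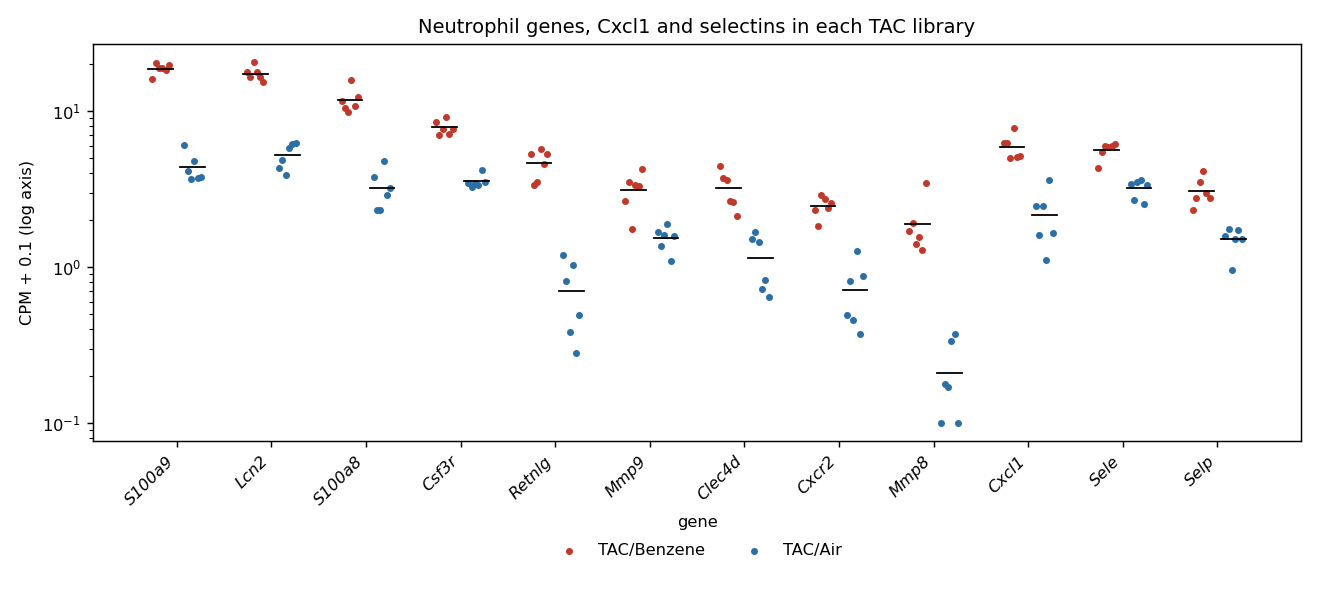
Level of 12 genes in each TAC library (points) with the group mean (bar), as CPM plus 0.1 on a log axis, with TAC/Benzene in red at the left and TAC/Air in blue at the right of each gene. All 6 TAC/Benzene libraries lie above all 6 TAC/Air libraries for every gene shown except Mmp9.

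A pair of endothelial selectin genes and the chemokine gene Cxcl1 also rose. Sele, which encodes the inducible endothelial adhesion molecule E-selectin, had 4.24, 5.82 and 6.03 CPM in TAC/Benzene, against 2.44, 3.29 and 3.51 CPM in TAC/Air (log2 fold change 0.83 ± 0.15, edgeR adjusted p = 0.0038). Selp, for P-selectin of endothelium and platelets, had 2.21, 2.78 and 4.02 CPM in TAC/Benzene against 0.856, 1.45 and 1.66 CPM in TAC/Air (1.07 ± 0.22, edgeR adjusted p = 0.0142). Cxcl1, the chemokine gene, had 4.89, 5.58 and 7.64 CPM in TAC/Benzene against 1.01, 1.96 and 3.53 CPM in TAC/Air (1.501 ± 0.296, edgeR adjusted p = 0.0119). The groups did not overlap for any of these 3 genes. All 3 lost their calls when the closest libraries were summed and within either set of libraries split by GC trend, where Cxcl1 was at 1.41 and 1.66 on the log2 scale.

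Of 25 tested genes of endothelial activation and adhesion, Sele and Selp were the 2 called, both higher (0.295% of all genes were). Icam1, for the firm-adhesion molecule that binds leukocyte integrins, had 31.5, 34.9 and 38.2 CPM in TAC/Benzene against 18.6, 23.7 and 26.1 CPM in TAC/Air, groups that did not overlap, but its log2 fold change of 0.62 ± 0.17 did not pass (edgeR adjusted p = 0.129). Tnfaip3, an NF-kB target gene whose product limits NF-kB, was at 0.60 ± 0.16 with groups that did not overlap either (adjusted p = 0.0964). Of 23 tested NF-kB targets and regulators, 2 were higher (Sele and Cxcl1, against 0.295% of all genes) and none was lower. Their median log2 fold change was 0.19, against 0.00 for all genes. Of 18 endothelial identity genes none was called, 13 were positive and 5 negative, and their median was 0.07. The pan-endothelial marker Pecam1 had 260 to 306 CPM in TAC/Benzene and 226 to 272 CPM in TAC/Air, and Kdr, for a VEGF receptor, had 244 to 278 CPM in TAC/Benzene and 263 to 323 CPM in TAC/Air. Of 20 tested chemoattractant and growth factor genes, Cxcl1 was the 1 called, and the list's median was -0.02.

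The promoters of Sele and Cxcl1 are shown because both genes are textbook targets of NF-kB. Each line gives the 250 bases before the RefSeq gene start (GRCm38.p6), with capitals marking the match to an NF-kB motif (GGGA, any base, T, any 2 bases, CC) searched on both strands; 3.44% of 32851 such windows in the same table hold that motif. Of the 12 called genes of neutrophils, selectins and Cxcl1, 11 had a window in the table and 2 held a match, those printed. The Sele window is chr1:164047984-164048233 on the plus strand, with its match on the opposite strand, and the Cxcl1 window is chr5:90890995-90891244 on the plus strand.
Sele: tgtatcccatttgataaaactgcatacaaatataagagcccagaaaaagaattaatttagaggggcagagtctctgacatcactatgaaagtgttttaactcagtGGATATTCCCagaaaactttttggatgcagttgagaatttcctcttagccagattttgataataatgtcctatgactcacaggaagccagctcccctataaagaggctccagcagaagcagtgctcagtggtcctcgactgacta
Cxcl1: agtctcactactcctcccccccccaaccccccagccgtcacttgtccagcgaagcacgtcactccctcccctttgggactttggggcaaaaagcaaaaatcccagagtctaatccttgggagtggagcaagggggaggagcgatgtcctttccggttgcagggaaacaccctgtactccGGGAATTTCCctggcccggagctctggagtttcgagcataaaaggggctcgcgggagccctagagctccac

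Genes of antigen presentation on MHC class II fell together. H2-Aa, the alpha chain of the I-A molecule, had 35.3, 41.4 and 42.4 CPM in TAC/Benzene, against 62.4, 66.5 and 72.5 CPM in TAC/Air (log2 fold change -0.74 ± 0.08, edgeR adjusted p = 3.52e-06). Its beta chain gene H2-Ab1 had 32.9, 34.8 and 38.1 CPM in TAC/Benzene against 53.9, 57.6 and 60.3 CPM in TAC/Air (-0.71 ± 0.09, edgeR adjusted p = 6.09e-05). Cd74, for the invariant chain that guides class II molecules to the endosome, had 88.4, 92.2 and 97.6 CPM in TAC/Benzene against 133.7, 152.2 and 169.4 CPM in TAC/Air (-0.73 ± 0.09, edgeR adjusted p = 6.09e-05). In all 3 genes every TAC/Benzene library lay below every TAC/Air library.

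H2-Eb1, the beta chain gene of the I-E molecule, whose alpha chain this mouse strain lacks, had 28.7, 33.4 and 40.5 CPM in TAC/Benzene against 48.3, 52.98 and 64.5 CPM in TAC/Air, also without overlap. Its log2 fold change of -0.72 ± 0.16 matched the others in size but had a wider error (edgeR adjusted p = 0.0318). That call was lost when any 1 of 10 libraries was left out (all but TAC/Benzene replicate 1 and TAC/Air replicate 4, adjusted p 0.0521 to 0.113). Of 35 tested genes of antigen presentation and the interferon response, these 4 were lower (background 0.287%) and none was higher. The median of the list was -0.26, and 33 of 35 had a negative log2 fold change. Ciita, the master activator of class II transcription, was at 2.02 CPM in TAC/Benzene and 3.06 CPM in TAC/Air (medians), a log2 fold change of -0.59 ± 0.23 that did not pass (adjusted p = 0.534; named after its values were seen). Within the libraries of high and of low GC trend H2-Aa was at -0.78 and -0.66 (edgeR adjusted p = 0.000595 and 0.055), and in the second set none of the 4 passed.

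Class II promoters carry a conserved Y box, shown here as background. Its part in the differences was not tested. Capitals mark CTGATTGG, searched on both strands in the 250 bases before the RefSeq start (GRCm38.p6); 3.83% of the 32851 windows hold it. Of the 4 genes, 2 have a window in the table and both hold the motif. The H2-Aa window is chr17:34287824-34288073 on the minus strand, and the H2-Eb1 window is chr17:34305617-34305866 on the plus strand.
H2-Aa: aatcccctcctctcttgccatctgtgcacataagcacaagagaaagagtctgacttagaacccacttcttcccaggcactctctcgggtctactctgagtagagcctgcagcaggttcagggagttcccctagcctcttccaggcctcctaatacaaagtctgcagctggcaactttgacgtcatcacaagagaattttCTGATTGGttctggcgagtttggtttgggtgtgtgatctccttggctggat
H2-Eb1: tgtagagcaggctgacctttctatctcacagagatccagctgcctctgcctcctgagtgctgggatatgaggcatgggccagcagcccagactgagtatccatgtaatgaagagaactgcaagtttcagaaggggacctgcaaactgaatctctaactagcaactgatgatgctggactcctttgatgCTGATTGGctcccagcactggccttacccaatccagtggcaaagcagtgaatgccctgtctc

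Macrophage genes leaned in the same direction as class II. Of 28 tested macrophage and monocyte genes, 3 were lower (0.287% of all genes were), none was higher, 25 had a negative log2 fold change and the median was -0.37; of all genes 50.03% were positive. Cx3cr1, the fractalkine receptor gene of resident macrophages and patrolling monocytes, had 6.03, 7.13 and 8.23 CPM in TAC/Benzene against 11.2, 13.2 and 14.4 CPM in TAC/Air (-0.88 ± 0.13, edgeR adjusted p = 0.000513). Adgre1, which encodes the macrophage surface protein F4/80, had 20.7, 23.6 and 26.0 CPM in TAC/Benzene against 27.5, 31.6 and 36.9 CPM in TAC/Air (-0.46 ± 0.09, edgeR adjusted p = 0.00925). Retnla, a resistin-like gene of alternatively activated macrophages, had 0.337, 0.509 and 0.71 CPM in TAC/Benzene against 0.905, 1.42 and 2.18 CPM in TAC/Air (-1.52 ± 0.31, edgeR adjusted p = 0.0142). None of the 3 overlapped between the groups. With the closest libraries summed, Cx3cr1 was the 1 of them still called. The list's counts of lower and higher genes were 6 and 1 with DESeq2, 9 and 1 with limma-voom, and 7 and 1 with GC and length offsets. They were 8 and 0 of 26 tested with only the 12 TAC libraries, and 12 and 0 with such offsets in those 12.

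Summed over the macrophage list, the level was 888 to 957 CPM in TAC/Benzene and 1040 to 1094 CPM in TAC/Air, again without overlap. Csf1r, the receptor gene for the macrophage growth factor, had 50.3, 55.9 and 56.0 CPM in TAC/Benzene against 68.0, 72.3 and 76.7 CPM in TAC/Air, but did not pass (-0.41 ± 0.12, edgeR adjusted p = 0.161). Cd68, a lysosomal marker of phagocytes, was at -0.47 ± 0.12 (adjusted p = 0.0702). Mgl2, a lectin gene of macrophages and dendritic cells that was not on the list, fell to 7.15, 7.27 and 8.12 CPM in TAC/Benzene, against 10.2, 11.9 and 15.4 CPM in TAC/Air (-0.72 ± 0.12, edgeR adjusted p = 0.00199). Tgtp2, an interferon-inducible GTPase gene, was at -0.68 ± 0.13 (edgeR adjusted p = 0.0119), and the class I-like gene H2-Q6 at -0.52 ± 0.11 (edgeR adjusted p = 0.025). Both have near-identical copies, so their counts are uncertain. H2-Q6 also lost its call without any 1 of 8 libraries (TAC/Benzene replicates 1 to 5 and TAC/Air replicates 2, 4 and 5, adjusted p 0.0557 to 0.0748). The lymphocyte list had 4 tested members of 28 and none called.

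**Figure D3:**
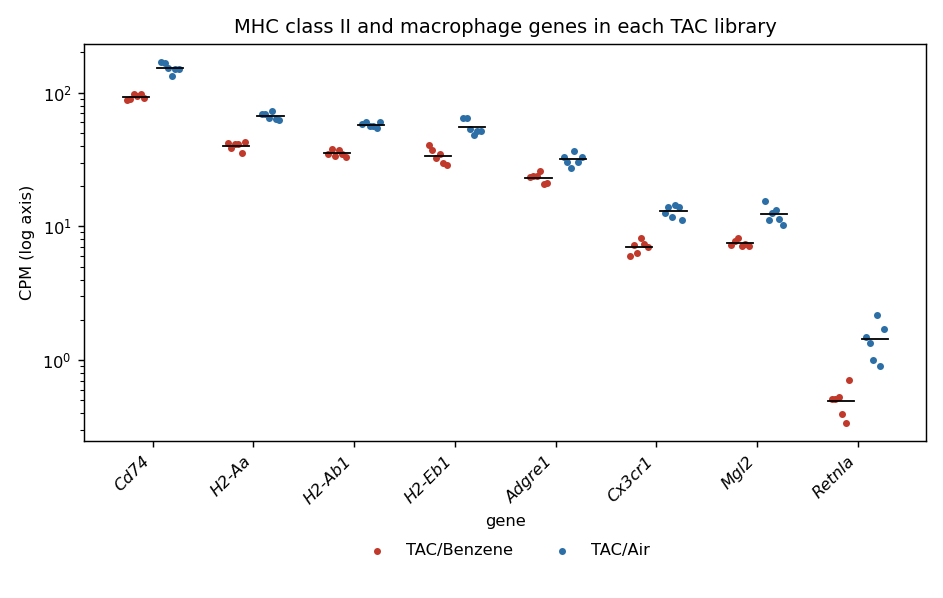
Level of 4 MHC class II genes and 4 macrophage genes in each TAC library (points, CPM on a log axis) with the group mean (bar), TAC/Benzene in red at the left and TAC/Air in blue at the right of each gene. Every TAC/Benzene point lies below every TAC/Air point in all 8 genes; for H2-Aa the ranges are 35.3 to 42.4 CPM and 62.4 to 72.5 CPM.

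In the myocardium, the hypertrophy marker Acta1 and a few other muscle genes were higher in TAC/Benzene, while the markers Nppa, Nppb and Myh7 did not pass the test. Acta1, the skeletal alpha-actin gene that the adult mouse ventricle re-expresses under load, had 4515, 4666 and 5030 CPM in TAC/Benzene, against 2385, 2507 and 2646 CPM in TAC/Air. Its log2 fold change was 0.91 ± 0.14 (edgeR adjusted p = 0.000535), with a clear gap between the groups. Nppa, for atrial natriuretic peptide, had 4014, 4288 and 4780 CPM in TAC/Benzene against 2965, 3587 and 4229 CPM in TAC/Air, which overlapped (0.26 ± 0.15, edgeR adjusted p = 0.931). Nppb, for brain natriuretic peptide, had 1265 to 1458 CPM in TAC/Benzene and 1063 to 1254 CPM in TAC/Air, without overlap, yet its log2 fold change of 0.22 ± 0.15 did not pass (unadjusted p = 0.163). Myosin and calcium-pump genes were close to 0, with log2 fold changes of 0.07 ± 0.11 for Myh7, 0.04 ± 0.13 for Myh6 and 0.02 ± 0.08 for Atp2a2.

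Of 18 tested genes of the fetal and stress program, 2 were higher (Acta1 and Myot, against 0.295% of all genes), none was lower, and the median was 0.15. For 6 of the 18, all TAC/Benzene libraries lay above all TAC/Air libraries, which held for 1.5% of all genes. The summed list, which includes Acta1, was at 27430 to 29070 CPM in TAC/Benzene and 21050 to 24130 CPM in TAC/Air, without overlap. The count of higher genes on this list was 3 with DESeq2 and 5 with only the 12 TAC libraries. It was 8 with limma-voom and 10 with GC and length offsets in those 12 libraries. These 4 settings called 171, 276, 556 and 829 genes in all. Myot, for the Z-disc protein myotilin, had 140, 150 and 175 CPM in TAC/Benzene against 97.9, 104 and 107 CPM in TAC/Air (0.59 ± 0.08, edgeR adjusted p = 0.00034). Flnc, the filamin of the Z-disc, had 521 to 710 CPM in TAC/Benzene and 360 to 505 CPM in TAC/Air but did not pass (0.58 ± 0.18, adjusted p = 0.26). Of 22 adult contractile and calcium-handling genes none was called, with a median of 0.02. Acta1 was at 0.85 and 0.98 within the libraries of high and of low GC trend, and at 0.92 with the closest libraries summed. It did not pass in those 3 contrasts (edgeR adjusted p 0.101, 0.222 and 0.061).

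Other muscle genes that rose lie outside that program. Fhl1, which encodes a LIM protein at the sarcomere that takes part in sensing stretch, had 521, 551 and 666 CPM in TAC/Benzene against 311, 346 and 467 CPM in TAC/Air (0.66 ± 0.12, edgeR adjusted p = 0.00406). Abra, for an actin-binding protein of striated muscle, had 154, 155 and 164 CPM in TAC/Benzene against 102, 116 and 118 CPM in TAC/Air (0.47 ± 0.07, edgeR adjusted p = 0.000535). Nmrk2, the muscle nicotinamide riboside kinase gene that feeds NAD synthesis, had 101, 106 and 111 CPM in TAC/Benzene against 53.2, 62.0 and 72.2 CPM in TAC/Air (0.76 ± 0.13, edgeR adjusted p = 0.00405). These 3 genes and Tacc2 (0.57 ± 0.08), a coiled-coil gene, had no overlap between groups. The ganglioside synthase gene St3gal5 rose by 0.46 ± 0.07 and the phosphofructokinase isoform gene Pfkp by 0.40 ± 0.07 on the log2 scale; Pfkp was the 1 called gene of 24 in glycolysis and glucose transport.

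**Figure D4:**
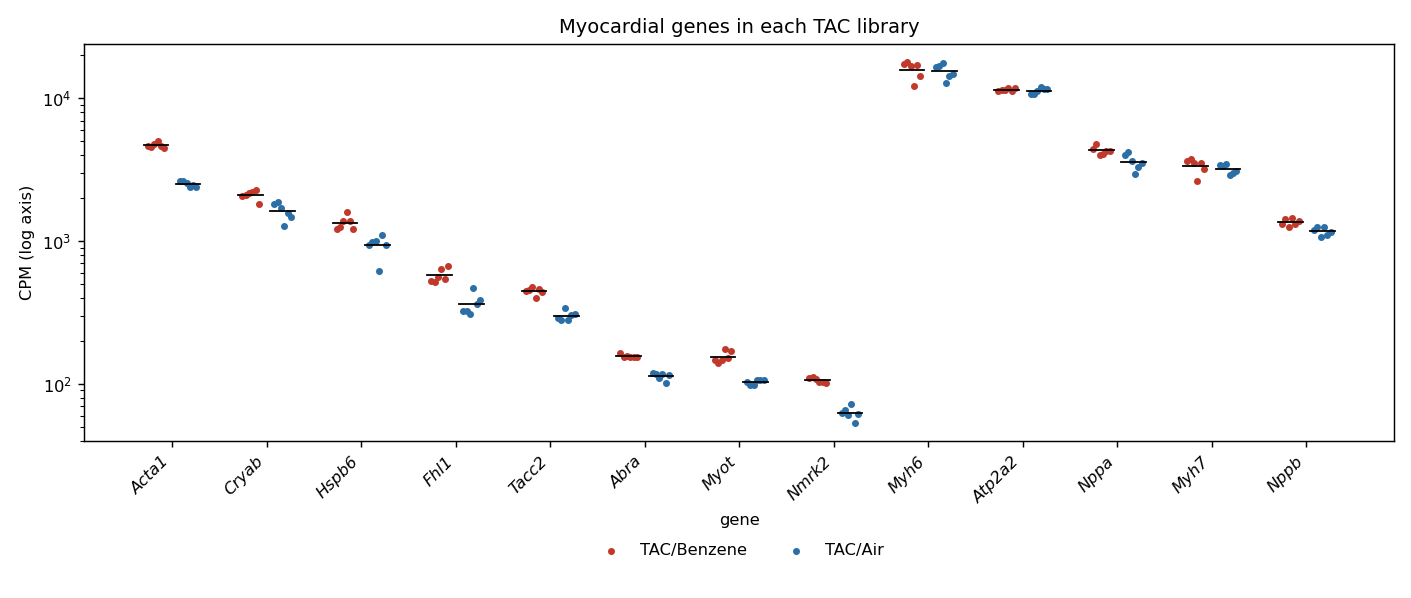
Level of 13 myocardial genes in each TAC library (points, CPM on a log axis) with the group mean (bar), TAC/Benzene in red at the left and TAC/Air in blue at the right of each gene. The 8 genes from Acta1 to Nmrk2 were called higher, Acta1 with 4515 to 5030 CPM in TAC/Benzene and 2385 to 2646 CPM in TAC/Air; the 5 genes from Myh6 to Nppb were not called.

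A pair of small heat shock protein genes and several acute stress genes were also among those that rose. Of 29 cytosolic heat shock genes, 2 were higher (0.295% of all genes were), 26 had a positive log2 fold change (50.03% of all genes had) and the median was 0.19. The count of higher genes on this list was 9 with only the 12 TAC libraries, 6 with limma-voom and 15 with GC and length offsets in those 12. Hspb6, for a small heat shock protein of muscle, had 1210, 1316 and 1591 CPM in TAC/Benzene against 621, 964 and 1103 CPM in TAC/Air (0.52 ± 0.10, edgeR adjusted p = 0.0142), with TAC/Air replicate 4 far below the rest. Cryab, for alpha-B crystallin, was at 0.38 ± 0.09 with groups that overlapped (edgeR adjusted p = 0.0366), and it lost its call without any 1 of 9 libraries (TAC/Benzene replicates 1 to 5 and TAC/Air replicates 3 to 6, adjusted p 0.0679 to 0.129). With offsets for GC content and length over all 24 libraries, Hspb6 was at 0.49 (adjusted p = 0.125) and Cryab at 0.35 (adjusted p = 0.338), neither called, while both were called with such offsets in the 12 TAC libraries alone.

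Serpina3n, an acute-phase protease inhibitor gene, had 175, 185 and 194 CPM in TAC/Benzene against 111, 118 and 121 CPM in TAC/Air (0.65 ± 0.13, edgeR adjusted p = 0.0142). The metallothionein gene Mt2, whose zinc-binding product is induced by metals, glucocorticoids and inflammation, had 62.9, 70.3 and 83.4 CPM in TAC/Benzene against 27.3, 34.9 and 42.5 CPM in TAC/Air (1.00 ± 0.20, edgeR adjusted p = 0.0154). Agt, for angiotensinogen, the precursor of angiotensin II, had 4.26, 5.86 and 7.11 CPM in TAC/Benzene against 1.40, 2.77 and 3.71 CPM in TAC/Air (1.14 ± 0.22, edgeR adjusted p = 0.0075). These 3 genes had no overlap between the groups. Mt2 was above the threshold without TAC/Air replicate 5 (adjusted p = 0.0552). Its neighbour Mt1, at 0.67 ± 0.16 (edgeR adjusted p = 0.046), lost its call without any 1 of the 12 libraries (adjusted p 0.0571 to 0.16).

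Cdkn1a, which encodes the p53 target and cell cycle inhibitor p21, had 43.7, 48.2 and 54.9 CPM in TAC/Benzene against 22.6, 29.8 and 36.0 CPM in TAC/Air, without overlap (0.71 ± 0.15, edgeR adjusted p = 0.0171). It lost its call without TAC/Benzene replicate 2 or TAC/Air replicate 3, 4 or 6 (adjusted p 0.0528 to 0.0654). Cdkn1a was the 1 called gene of 26 in the p53 response, a list whose median was -0.02. Of 22 glucocorticoid-responsive genes, 4 were higher (Lcn2, Mt2, Cdkn1a and Mt1, against 0.295% of all genes), all of which also belong to other lists. On this list 19 had a positive log2 fold change (50.03% of all genes had) and the median was 0.25. Its count of higher genes was 3 with no filter on low counts, 5 with DESeq2, 7 with GC and length offsets and 9 with limma-voom. Of 34 NRF2 antioxidant genes, Mt1 and Mt2 were the 2 called, and the median was 0.01. The stress cytokine gene Gdf15 did not pass, with 27.4 CPM in TAC/Benzene and 21.2 CPM in TAC/Air (medians; 0.38 ± 0.22). Of 22 immediate early genes none was called; Fos had 9.21 to 11.2 CPM in TAC/Benzene and 6.55 to 7.54 CPM in TAC/Air (0.54 ± 0.14, adjusted p = 0.0855).

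The rest of the called stress genes were sensitive to single libraries. Bnip3, a mitophagy receptor gene induced by low oxygen and the 1 called gene of 26 in the hypoxia response, was at 0.32 ± 0.07 (edgeR adjusted p = 0.025). It lost its call without TAC/Benzene replicate 4 or 6 or TAC/Air replicate 1, 2, 3 or 6 (adjusted p 0.0517 to 0.0907). Nfil3, a transcription factor gene and the 1 called of 19 circadian genes, was at 0.49 ± 0.11 and kept its call in 1 of the 12 leave-outs, that of TAC/Air replicate 5 (adjusted p 0.0564 to 0.132 in the others). Fstl3, for a secreted activin inhibitor, was at 0.79 ± 0.18 and kept its call only without TAC/Air replicate 1 or 2 (adjusted p 0.0537 to 0.143 in the others).

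Among stromal genes, the cartilage-type genes Clec3a and Chad and the matrix genes Thbs2 and Tnc fell, while most genes of the matrix and cartilage lists did not pass. Clec3a, a C-type lectin gene first known from cartilage, had 1.18, 2.19 and 3.55 CPM in TAC/Benzene against 7.70, 9.46 and 11.3 CPM in TAC/Air, and its log2 fold change of -2.15 ± 0.31 was the lowest among the genes called with 1 CPM or more on average (edgeR adjusted p = 0.000367). Chad, for the cartilage matrix protein chondroadherin, had 1.36, 1.81 and 3.23 CPM in TAC/Benzene against 5.38, 6.24 and 7.06 CPM in TAC/Air (-1.60 ± 0.24, edgeR adjusted p = 0.000535). Thbs2, a thrombospondin gene, had 33.7, 36.3 and 39.2 CPM in TAC/Benzene against 48.1, 54.0 and 59.9 CPM in TAC/Air (-0.55 ± 0.11, edgeR adjusted p = 0.00963). None of these 3 genes overlapped between the groups. Of 50 extracellular matrix genes, 2 were lower (Thbs2 and Tnc, against 0.287% of all genes) and none was higher, and the median was -0.05. Of 21 tested cartilage and tendon genes Chad was the 1 called, 16 had a negative log2 fold change and 5 a positive one, and the median was -0.34. Epyc (-1.27 ± 0.39, adjusted p = 0.236) and Hapln1 (-1.77 ± 0.56, adjusted p = 0.26), a pair of cartilage matrix genes, did not pass.

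Tnc, for tenascin C, a protein of injured matrix, had 4.63, 7.55 and 8.85 CPM in TAC/Benzene against 11.1, 14.3 and 16.7 CPM in TAC/Air (-0.93 ± 0.21, edgeR adjusted p = 0.0392). Despite the gap between the groups, it kept its call in only 1 leave-out, that of TAC/Air replicate 6 (adjusted p 0.0571 to 0.14 in the others). Wif1, a secreted Wnt inhibitor gene and the 1 called of 18 fibroblast genes, had 2.93, 3.37 and 4.13 CPM in TAC/Benzene against 4.99, 6.57 and 7.73 CPM in TAC/Air (-0.92 ± 0.19, edgeR adjusted p = 0.0164). It lost its call without TAC/Benzene replicate 2 or 6 or TAC/Air replicate 4 or 6 (adjusted p 0.0521 to 0.0578). Scara5, a ferritin receptor gene of fibroblasts, fell to 14.5, 16.2 and 17.6 CPM in TAC/Benzene, against 20.8, 22.8 and 23.5 CPM in TAC/Air (-0.49 ± 0.08, edgeR adjusted p = 0.00313). Scara3, a related scavenger receptor gene, was at -0.67 ± 0.13 (edgeR adjusted p = 0.0075).

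Further stromal genes fell with weaker support. Efemp1, a fibulin gene, was at -0.99 ± 0.20 with groups that overlapped, and lost its call without TAC/Benzene replicate 2 (adjusted p = 0.0538). Ecrg4, for a secreted precursor peptide, had 5.32, 6.56 and 7.25 CPM in TAC/Benzene against 9.50, 11.5 and 15.7 CPM in TAC/Air (-0.93 ± 0.20), and lost its call without TAC/Benzene replicate 2, 3, 4 or 6 or TAC/Air replicate 1 or 2 (adjusted p 0.0571 to 0.0907). Timp2, a metalloproteinase inhibitor gene, had 200 to 219 CPM in TAC/Benzene and 248 to 265 CPM in TAC/Air (-0.31 ± 0.07), and lost its call without any 1 of 9 libraries (all but TAC/Benzene replicate 4 and TAC/Air replicates 2 and 4, adjusted p 0.0512 to 0.0845). Of 32 matrix protease and inhibitor genes, Mmp8 and Mmp9 were higher (0.295% of all genes were) and Timp2 was lower (0.287% were). The fibroblast marker Pdgfra did not pass, with 62.3 to 76.4 CPM in TAC/Benzene and 65.0 to 91.6 CPM in TAC/Air.

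A few called genes with other roles were also lower. Piezo2, a mechanically gated channel gene, had 2.80, 3.14 and 4.38 CPM in TAC/Benzene against 4.71, 5.87 and 6.63 CPM in TAC/Air (-0.78 ± 0.17, edgeR adjusted p = 0.0216). Nrn1, for the neurite-promoting protein neuritin, had 14.3, 16.4 and 18.7 CPM in TAC/Benzene against 22.1, 24.8 and 28.2 CPM in TAC/Air (-0.58 ± 0.11, edgeR adjusted p = 0.0075). Neither overlapped between the groups. The collagen VI chain gene Col6a6 (-0.84 ± 0.17) and Smoc1 (-0.82 ± 0.17), for a matrix-associated calcium-binding protein, both had an edgeR adjusted p of 0.0164 and groups that overlapped. Single libraries decided 3 of these calls: Col6a6 lost its call without TAC/Benzene replicate 2, 3 or 4 or TAC/Air replicate 6, Smoc1 without TAC/Benzene replicate 2 or 6 or TAC/Air replicate 2 or 3, and Piezo2 without TAC/Benzene replicate 1, 2, 3 or 6 or TAC/Air replicate 4, 5 or 6. The highest adjusted p in these fits were 0.0608 for Col6a6, 0.0594 for Smoc1 and 0.0728 for Piezo2. Of 27 cardiac ion channel and junction genes, the 1 called was Cacng6, a calcium channel subunit gene near the floor, at 0.0843 to 0.34 CPM in TAC/Benzene and 0.468 to 1.03 CPM in TAC/Air (-2.02 ± 0.46, edgeR adjusted p = 0.0366). It lost its call without TAC/Benzene replicate 3, 4, 5 or 6 or TAC/Air replicate 1, 2, 3 or 4 (adjusted p up to 0.114).

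Single genes of metabolic enzymes also fell. Cyp2e1, the gene of the main benzene-oxidising cytochrome and the 1 called of 29 xenobiotic genes, had 0.508, 1.17 and 1.48 CPM in TAC/Benzene against 2.07, 2.48 and 2.97 CPM in TAC/Air (-1.14 ± 0.22, edgeR adjusted p = 0.00931). Car3, a carbonic anhydrase gene of muscle and fat, had 0.927, 1.02 and 2.04 CPM in TAC/Benzene against 2.78, 3.49 and 5.54 CPM in TAC/Air (-1.58 ± 0.29, edgeR adjusted p = 0.00679). Gatm, for the enzyme that starts creatine synthesis, had 3.82, 4.66 and 5.88 CPM in TAC/Benzene against 5.77, 9.67 and 10.1 CPM in TAC/Air (-0.93 ± 0.15, edgeR adjusted p = 0.00131). Cyp2e1 and Car3 did not overlap between the groups, and Gatm did. Both Cyp2e1 and Car3 are adipocyte genes too; the adipocyte list had 0 of 8 tested members called and summed to 1062 to 1329 CPM in TAC/Benzene and 992.5 to 1356 CPM in TAC/Air. Of the 8 tested members of that list, 6 had a positive log2 fold change and 2 a negative one, and the median was 0.11. Its member Cfd, for the adipocyte protease adipsin, had 0.873, 1.14 and 1.52 CPM in TAC/Benzene and 1.64, 2.55 and 3.38 CPM in TAC/Air. Cfd was among the negative members and did not pass (-1.18 ± 0.38, edgeR adjusted p = 0.299). The part of adipocyte RNA in these differences was not tested.

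Mylk4, a muscle gene of the myosin light chain kinase family, fell to 107, 113 and 125 CPM in TAC/Benzene, against 160, 192 and 209 CPM in TAC/Air (-0.69 ± 0.13, edgeR adjusted p = 0.0075). Aldh1l2, a mitochondrial folate enzyme gene and the 1 called of 30 genes in the integrated stress response, was at -0.54 ± 0.11 and lost its call without TAC/Benzene replicate 1 (adjusted p = 0.0532). Of 45 nuclear-encoded respiratory chain genes none was called (median -0.02), and of 32 fatty acid genes none was called (median 0.02). The aryl hydrocarbon receptor target Cyp1a1 was near the floor in both groups, with medians of 0.241 CPM in TAC/Benzene and 0.208 CPM in TAC/Air.

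Cell cycle genes were low and leaned downward. Of 32 tested, 1 was lower (0.287% of all genes were), 30 had a negative log2 fold change and the median was -0.33. Of all genes 50.03% were positive. Rrm2, the small subunit gene of ribonucleotide reductase, which supplies DNA precursors, had 1.74, 2.52 and 2.88 CPM in TAC/Benzene against 3.61, 4.34 and 5.16 CPM in TAC/Air (-0.84 ± 0.19, edgeR adjusted p = 0.0366). It did not overlap between the groups, but kept its call only without TAC/Air replicate 1 or 4 (adjusted p 0.0528 to 0.135 in the others). The replication helicase genes Mcm3 (-0.42 ± 0.11, adjusted p = 0.0971) and Mcm2 (-0.35 ± 0.11, adjusted p = 0.265) did not pass. The summed list was at 488 to 533 CPM in TAC/Benzene and 530 to 608 CPM in TAC/Air, where the ranges touch. In all, 19 of the 42 gene lists had no called member, among them the EGF family, smooth muscle and left ventricle identity genes. Complement and coagulation was another, although 21 of 23 members were negative, 8 of them at an unadjusted p under 0.05. Over all genes, 837 of 13571 had an unadjusted p under 0.05, with either sign. The summed level of complement and coagulation was 2047 to 2184 CPM in TAC/Benzene and 2381 to 2556 CPM in TAC/Air. With GC and length offsets 4 complement genes were called lower. With such offsets in the 12 TAC libraries alone, 8 complement genes were called lower and 1 higher, and 7 genes of the unfolded protein response and 4 of the interleukin-6 family, lists with no call in the 24-library fit, were called higher.

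The same contrast in sham hearts, Sham/Benzene against Sham/Air, gave 3 called genes (0.0221%). Of 13571 tested genes, 777 had an unadjusted p under 0.05 there, against 837 in TAC hearts. About 1 in 20 genes would pass that threshold by chance alone. Fitted on their own, the sham groups varied more, with a common biological variation of 16.1% in Sham/Benzene and 32.1% in Sham/Air. Genes of other tissues also differed between sham libraries. Liver genes summed to 265.1 CPM in Sham/Benzene replicate 1 and at most 81.3 CPM in Sham/Air. Atrial, mesothelial and nerve genes summed to 336.4 CPM in Sham/Benzene replicate 4 and at most 174.2 CPM in Sham/Air. Without Sham/Air replicate 1, the lung gene Scgb1a1 was at -3.22 ± 0.32 in sham hearts (edgeR adjusted p = 1.82e-06). The sham contrast and the interaction include such differences. Without Sham/Air replicate 1, 2 genes were called in sham hearts and 234 in TAC hearts. A difference in these counts is not a test of the difference between the contrasts. Of the 79 genes called in TAC hearts, 43 had the same sign in sham hearts, a share near that of random signs. An unadjusted p under 0.05 in sham hearts was held by 15 of the 79, with either sign. Among these, Serpina3n and Mylk4 had the same sign as in TAC hearts, and Chad, Clec3a and Cyp2e1 the opposite one. The difference between the contrasts was tested directly as a surgery by benzene interaction, the TAC contrast minus the sham contrast. It shares its TAC libraries with the results above. It called 23 genes (0.169%), 9 positive (0.0663%) and 14 negative (0.103%).

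Of the 9 neutrophil genes called in TAC hearts, 5 had a called interaction, which was positive in each. For S100a9 the log2 fold change was 2.12 ± 0.20 in TAC hearts and 0.14 ± 0.22 in sham hearts, with 4.93 ± 2.08 CPM in Sham/Benzene and 4.64 ± 1.02 CPM in Sham/Air (mean ± SD, n = 6), and the interaction was 1.98 ± 0.30 (edgeR adjusted p = 0.00173). Lcn2 was at 1.76 in TAC and -0.21 in sham hearts (interaction 1.97 ± 0.25, edgeR adjusted p = 0.00046). Retnlg was at 2.88 in TAC and -0.27 in sham hearts (interaction 3.14 ± 0.50, edgeR adjusted p = 0.00259), and S100a8 at 1.90 and -0.08 (interaction 1.98 ± 0.34, edgeR adjusted p = 0.00742). Mmp8 was at 3.95 in TAC and -0.98 in sham hearts (interaction 4.93 ± 0.86, edgeR adjusted p = 0.00742). Its sham means were near the floor, at 0.275 CPM in Sham/Benzene and 0.71 CPM in Sham/Air, and its sham value was -0.69 without Sham/Air replicate 1. The other neutrophil genes did not pass: Csf3r was at 1.17 in TAC and 0.47 in sham hearts (interaction 0.70 ± 0.27, edgeR adjusted p = 0.776), Cxcr2 at 1.91 and 0.51 (adjusted p = 0.846), Clec4d at 1.56 and 0.74 (adjusted p = 0.9999) and Mmp9 at 1.07 and -0.34 (adjusted p = 0.17). Nor did the interactions of Selp (1.57 ± 0.37, adjusted p = 0.103) and Cxcl1 (1.42 ± 0.45, adjusted p = 0.483) pass. Sele and Myot had positive interactions, of 1.20 ± 0.23 and 0.69 ± 0.12 (edgeR adjusted p = 0.0166 and 0.00742). For Acta1 the interaction of 0.85 ± 0.19 did not pass (edgeR adjusted p = 0.0917).

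Among the negative interactions, class II genes were near 0 in sham hearts. H2-Aa had 55.7 ± 5.47 CPM in Sham/Benzene and 56.4 ± 3.04 CPM in Sham/Air, a log2 fold change of -0.02 ± 0.08, and its interaction was -0.71 ± 0.11 (edgeR adjusted p = 0.00173). H2-Ab1 and Cd74 had interactions of -0.68 ± 0.13 and -0.69 ± 0.13 (edgeR adjusted p = 0.0152 and 0.0166). Cartilage-type genes and Cyp2e1 instead had opposite signs in the 2 surgeries. Chad was at -1.60 ± 0.24 in TAC and 1.04 ± 0.26 in sham hearts (interaction -2.64 ± 0.35, edgeR adjusted p = 0.000594), and Clec3a at -2.15 ± 0.31 in TAC and 0.94 ± 0.32 in sham hearts (interaction -3.09 ± 0.45, edgeR adjusted p = 0.0013). Cyp2e1 was at -1.14 ± 0.22 in TAC and 0.81 ± 0.20 in sham hearts (interaction -1.95 ± 0.30, edgeR adjusted p = 0.00173). None of these 3 passed in sham hearts on its own, with adjusted p of 0.21 for Chad, 0.642 for Clec3a and 0.21 for Cyp2e1. In contrast, Serpina3n was at 0.65 ± 0.13 in TAC and 0.46 ± 0.14 in sham hearts, and Mylk4 at -0.69 ± 0.13 in TAC and -0.44 ± 0.13 in sham hearts, with no interaction called. Without Sham/Air replicate 1 the sham value of Mylk4 was -0.27 ± 0.09 and that of Serpina3n 0.37 ± 0.12.

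The interaction calls were sensitive too. Fkbp5, a glucocorticoid-induced chaperone gene, and Irf9, an interferon signalling gene, had interactions of 0.67 ± 0.12 and -0.59 ± 0.12 (edgeR adjusted p = 0.0141 and 0.032) although neither passed within TAC hearts, where they were at 0.31 ± 0.09 and -0.21 ± 0.08. Leaving out single TAC libraries gave 16 to 20 interaction calls. S100a9, Lcn2, Retnlg, H2-Aa, Chad, Clec3a and Cyp2e1 were called in each of those 12 fits, and Irf9, Pfkp, Mgl2, Wif1, H2-Q6, Scara3 and Car3 were lost in some. With offsets for GC content and length, H2-Ab1, Cd74, H2-Q6 and Pfkp lost theirs. With the closest TAC libraries summed, 8 interaction genes were called, and S100a8, H2-Ab1, Cd74, Sele and Myot were no longer among them.

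**Figure D5:**
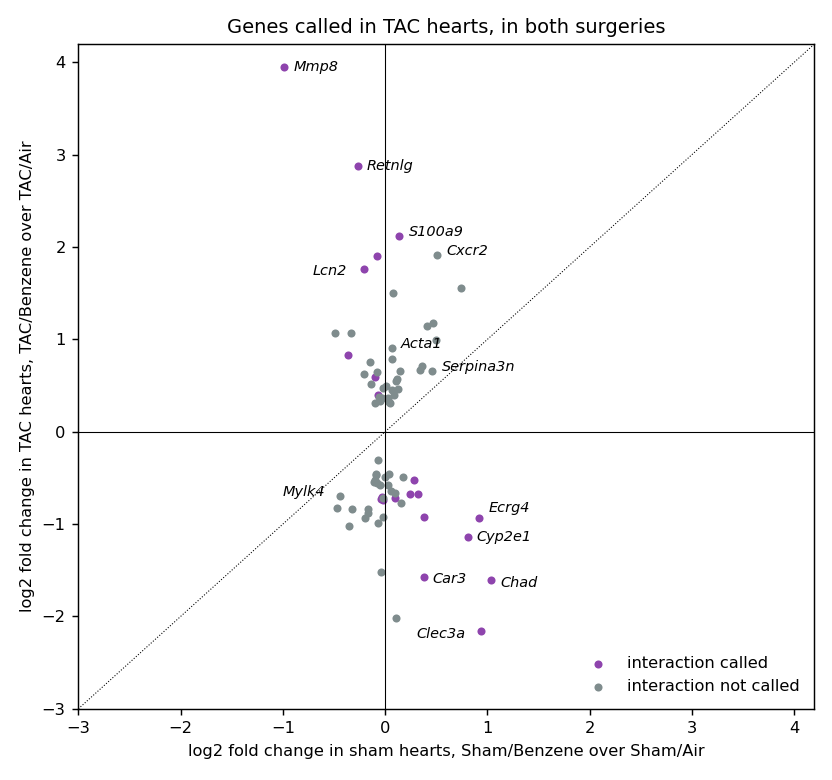
The 79 genes called in TAC hearts, with their log2 fold change in TAC hearts (TAC/Benzene over TAC/Air, vertical axis) against that in sham hearts (Sham/Benzene over Sham/Air, horizontal axis). Purple points have a called interaction and the dotted line marks equal differences. Of the neutrophil genes S100a9, S100a8, Lcn2 and Retnlg lie between -0.27 and 0.14 on the sham axis and Csf3r, Cxcr2 and Clec4d between 0.47 and 0.74. Mmp9 lies at -0.34 and Mmp8 at -0.98 on that axis, while Chad, Clec3a, Cyp2e1 and Ecrg4 lie at the lower right.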

How the data were processed

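Raw counts (whole numbers, a row per gene symbol) were deposited by the authors in 1 table. Quality control with FastQC 0.11.9, the aligner STAR, DESeq2 and the genome build mm9 appear in the submitters' processing notes. How reads were assigned to genes, with which annotation and strand setting, was not given in the sources used here, so overlapping or near-identical genes may be miscounted, and gene coordinates are not used here. Genes passing edgeR 4.0.16's expression filter (minimum count 10, minimum total 15) were kept, which left out 0.0747% of counts. TMM-scaled counts of all 24 libraries were fitted with robust quasi-likelihood, 1 coefficient per group, and 3 contrasts were tested: benzene in TAC, benzene in sham and their interaction. Every adjusted p is Benjamini-Hochberg over all tested genes, at a threshold of 0.05. The SE of a log2 fold change was taken as its size over the root of F. The fit was also run on simulated counts with the same spread in every library and changes only in well-counted genes. Those counts held no outlying library and no GC trend, so they do not test how the fit behaves with either. R was 4.3.3.

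Genes named are the 20 highest and 20 lowest called with a mean of at least 1 CPM, the 15 smallest p in each direction, called members of 42 lists (or a list's 3 smallest p), the 10 highest and lowest interactions, and a fixed set; not all are printed. Lists and genes were chosen with earlier results of these data known. Alternatives were DESeq2 1.42.0, limma-voom (limma 3.58.1), other scaling and filters, fewer libraries, a replicate block, and offsets for GC content and length (GENCODE vM21, 98% of symbols matched). Promoter windows are from RefSeq.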

Additional observations from a re-analysis of the deposited data

Results flagged for a closer look

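Of 148 groups of 6 values checked (library totals and the genes named), 7 held a library that stood far from the other 5, which is 4.73%; chance flags about 1 in 20 groups. In TAC/Benzene, replicate 6 was highest for Mmp8 at 3.37 CPM (next 1.81), replicate 1 was lowest for Sele at 4.24 CPM (next 5.37) and highest for Abra at 164 CPM (next 157), and replicate 4 was highest for Mt1 at 335 CPM (next 265). In TAC/Air, replicate 5 was highest for Csf3r at 4.07 CPM (next 3.43), replicate 3 was lowest for Selp at 0.856 CPM (next 1.40), and replicate 4 was lowest for Hspb6 at 621 CPM (next 944).

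The surgery by benzene interaction was called by edgeR's test for 23 of 13571 tested genes (0.169%). A called interaction was itself a reason to name a gene, so their place among the genes named adds nothing. The number of these calls changed with the processing, as given below. The log2 difference, TAC minus sham, was positive for Mmp8 (4.93), Retnlg (3.14), S100a9 (1.98), S100a8 (1.98), Lcn2 (1.97), Sele (1.20), Myot (0.69), Fkbp5 (0.67) and Pfkp (0.47). It was negative for Clec3a (-3.09), Chad (-2.64), Car3 (-1.95), Cyp2e1 (-1.95), Ecrg4 (-1.85), Wif1 (-1.30), Tgtp2 (-0.998), Scara3 (-0.91), Mgl2 (-0.81), H2-Q6 (-0.80), H2-Aa (-0.71), Cd74 (-0.69), H2-Ab1 (-0.68) and Irf9 (-0.59).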

How the results depend on the processing

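The count of genes called between TAC/Benzene and TAC/Air was 79, and 171 with DESeq2, 556 with limma-voom, 276 with only the 12 TAC libraries, 234 without Sham/Air replicate 1 and 237 with offsets for GC content and length. Further settings were added with the results known: such offsets in only the 12 TAC libraries gave 829 and the closest pairs summed gave 16. In a fit of all 24 libraries with the TAC groups split by GC trend, the contrast above 0.4 gave 19 and the other gave 5. Leaving out 1 TAC library gave 52 to 68; 42 of the 79 genes kept their call in all 12 of these fits, and the lowest count was without TAC/Benzene replicate 2. The replicate block gave 46 calls with 24 libraries and 745 with the 12 TAC libraries. With 24 libraries 33 of the 79 lost their call under it, Hspb6 under both block fits. Deviations of same-numbered TAC libraries correlated at -0.0394 to 0.412, with 1 of 6 pairs below 0.1, so the numbers were not taken as pairs; 3 of 6 TAC/Benzene libraries correlated best with their own number. All 79 kept their direction wherever tested. The interaction, 23 calls, gave 57 with DESeq2, 93 with limma-voom, 14 with the replicate block, 54 with offsets, 49 without Sham/Air replicate 1, 8 with the closest pairs summed and 16 to 20 with 1 TAC library left out. Benzene in sham hearts, 3 calls, gave 28 with DESeq2 and 1 with the closest pairs summed. Scaling by relative log expression gave 77 calls and other filters 63 and 78. The causes of these differences were not tested. Most named genes under 10 CPM rest on few counts, which limits their precision.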
